A study of Homo sapiens with 6 samples.

Results

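The genes described here are 10 classic targets of the let-7 microRNA family that are expressed in the embryo, for the most part reduced in adult tissues and expressed again in many tumours: HMGA2, HMGA1, LIN28B, IGF2BP1, IGF2BP2, IGF2BP3, ARID3A, ARID3B, TRIM71 and MYCN. They were taken by name as known targets, with earlier results of these data known, and all 10 were found among the 27745 genes of the count table. Of these 10, 6 passed the filter on low counts that 15914 genes of the table passed, and only those 6 were tested.

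A microRNA guides an Argonaute protein to messenger RNAs, mostly by pairing its seed, bases 2 to 8, with a site in the 3′UTR, and the target is then destabilised and translated less. The let-7 family accumulates as cells differentiate. LIN28B and its paralog LIN28A bind let-7 precursors and block their maturation, and LIN28B is itself a let-7 target, so the pair forms a double-negative loop. When let-7 is low, chromatin proteins (HMGA1, HMGA2, ARID3A, ARID3B), RNA-binding proteins that stabilise growth-related transcripts (IGF2BP1, IGF2BP2, IGF2BP3) and the growth regulator MYCN are released together.

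MIR100HG is a long non-coding RNA whose locus on chromosome 11 also carries the hairpins of miR-100, let-7a-2 and miR-125b-1. The study asked how its loss affects MDA-MB231 cells (also written MDA-MB-231), an established triple-negative breast cancer line with mesenchymal traits. Cells were infected with lentivirus of the pLKO.1 type carrying sh-TRC, the control construct, or 1 of 2 hairpins against MIR100HG, sh-MIR100HG-1 and sh-MIR100HG-2. Each of the 3 groups has 2 biological replicates, so all 6 libraries come from 1 cell line and carry an shRNA vector, and no uninfected cells were compared. Mature microRNAs were not measured in these libraries. In the paper, quantitative PCR after MIR100HG was overexpressed found miR-100, miR-125b and let-7a unchanged in MDA-MB-231 and BT549 cells. The paper proposes from this that MIR100HG does not act through the microRNAs it hosts. Those measurements were made after overexpression and not after the knockdown described here. RNA was extracted in bulk, so a higher level in every cell and a larger share of cells with the transcript cannot be told apart.

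Which of these genes carry sites of the microRNAs from this locus is shown first, because the sites are what the genes share. The mature sequences below, from RefSeq (GRCh38.p14), are those of the microRNAs hosted by the MIR100HG locus, followed by the let-7 family member that differs most from let-7a. The seed is in capitals.
let-7a-5p: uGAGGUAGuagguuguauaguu
miR-125b-5p: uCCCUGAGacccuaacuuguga
miR-100-5p: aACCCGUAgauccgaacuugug
let-7i-5p: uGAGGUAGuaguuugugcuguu

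The seed GAGGUAG is shared by 9 members of the let-7 family in that table (let-7a, b, c, d, e, f, g and i, and miR-98), which differ from let-7a by 1 to 4 bases outside it. A let-7 site therefore does not tell which member could bind. Let-7a itself comes from 3 hairpin genes, of which only MIRLET7A2 lies in the MIR100HG locus, and miR-125b comes from 2. MiR-100 has 1 hairpin gene.

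Sites were read from the transcript strand of annotated 3′UTRs (GRCh37, GENCODE v44lift37), as CTACCTC, which pairs with bases 2 to 8 of let-7, or TACCTCA, which pairs with bases 2 to 7 and has an A opposite base 1. Where both overlap, the 8-mer CTACCTCA was counted once. In the canonical transcripts, a choice made after the counts in the longest 3′UTRs had been seen, every one of the 10 genes held at least 1 match. TRIM71 held 8, HMGA2 7, LIN28B, IGF2BP1 and ARID3B 5 each, IGF2BP2 and ARID3A 3 each, MYCN 2, and HMGA1 and IGF2BP3 1 each. Among all 19080 protein-coding genes with a canonical 3′UTR, 15.8% held any such match and 2 genes, 0.0105%, held 7 or more. A match is a description of the letters and was not tested for function.

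The windows below were chosen because they belong to the 6 genes with testable expression. They show the let-7 match nearest the stop codon in HMGA2, a further HMGA2 match, and 1 let-7, 1 miR-125b and 1 miR-100 match each of ARID3A and ARID3B, which hold further ones. The remaining lines are 1 let-7 match each of IGF2BP2, IGF2BP3 and HMGA1. Capitals mark the match, with the A opposite base 1 where it is present, and the coordinates are those of GRCh37.
HMGA2 let-7, chr12:66357082-66357111, plus strand: acgttcgatttCTACCTCAgcagcagttgg
HMGA2 let-7, chr12:66358317-66358346, plus strand: actactcaataCTACCTCtgaatgttacaa
ARID3A let-7, chr19:974515-974544, plus strand: cctatctctgtCTACCTCAggtctgacttt
ARID3A miR-125b, chr19:973493-973522, plus strand: caggctcctgtCTCAGGGAtgaatgtggcg
ARID3A miR-100, chr19:972147-972176, plus strand: atggcggaagaTACGGGTggggagggaaga
ARID3B let-7, chr15:74888172-74888201, plus strand: tgcacagaattTACCTCAtctcacagagcc
ARID3B miR-125b, chr15:74889276-74889305, plus strand: aggggagacgaCTCAGGGAtcgcgggggcg
ARID3B miR-100, chr15:74888645-74888674, plus strand: ggttcctggggTACGGGTccctcaaacaca
IGF2BP2 let-7, chr3:185361997-185362026, minus strand: cacagaagaagCTACCTCAggtgtttttac
IGF2BP3 let-7, chr7:23351403-23351432, minus strand: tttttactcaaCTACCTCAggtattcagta
HMGA1 let-7, chr6:34213610-34213639, plus strand: ctgttcacaaaCTACCTCtggacagttgtg

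**Figure D1:**
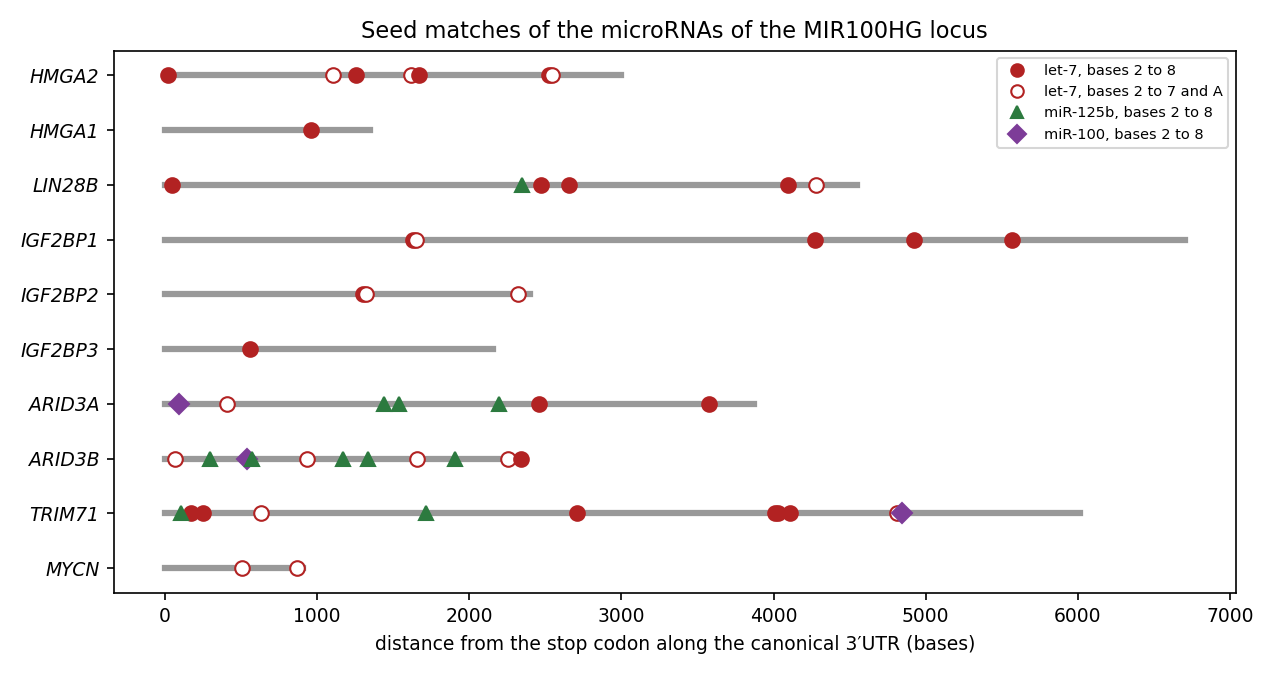
Positions of seed matches along the canonical 3′UTR of each of the 10 genes, with the distance from the stop codon in bases on the x axis and each grey bar as long as the 3′UTR. Filled red circles are let-7 matches to bases 2 to 8, open red circles matches to bases 2 to 7 followed by A, green triangles miR-125b matches and purple diamonds miR-100 matches; ARID3A, ARID3B and TRIM71 carry all 3 kinds.

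ARID3A, ARID3B and TRIM71 also held matches to the other microRNAs of the locus, CTCAGGG for miR-125b and TACGGGT for miR-100. The longest 3′UTR of ARID3A held 3 miR-125b matches and that of ARID3B held 5, against 2 in TRIM71, 1 in LIN28B and 0 in the other 6 genes. Over all 19303 protein-coding genes with a 3′UTR, 15.6% held at least 1 miR-125b match. A miR-100 match was present once each in ARID3A, ARID3B and TRIM71, a motif that 1.14% of all genes held. Matches to all 3 microRNAs, taken over all annotated 3′UTR blocks of a gene, were found in these 3 of the 10 genes and in 32 genes (0.166%) of all.

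The choice of transcript mattered most for HMGA2. Its transcript with the longest 3′UTR (HMGA2-210, 7421 bases) held 0 let-7 matches, and the 7 matches lie in the 2999-base 3′UTR of HMGA2-204. Counting CTACCTC only in the longest 3′UTR, 8 of the 10 genes had a match (not HMGA2 and MYCN), against 10.6% of all protein-coding genes. The genes were taken as known let-7 targets, so a high share was built into the choice. Their longest 3′UTRs had a median of 3137.5 bases, against 1222 for all genes. The part of this length in the shares with let-7, miR-125b and miR-100 matches was not tested. The deposited counts are summed over all exons of a gene, so which 3′UTR these cells use was not measured.

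The knockdown itself was checked first. MIR100HG (ENSG00000255248.7_2, chr11:121899035-122427429, minus strand) had 41.7 and 58.5 CPM (counts per library scaled to the same total with edgeR's TMM method) in the sh-TRC libraries. With sh-MIR100HG-1 it had 15.1 and 13.2 CPM, and 16.6 and 10.4 CPM after infection with sh-MIR100HG-2. All 4 knockdown libraries lay below both controls. The log2 fold change (log2FC) was -1.82 (SE 0.31) with the first hairpin and -1.89 (SE 0.31) with the second, which differed by -0.07 (SE 0.30).

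Total counts ranged from 43804736 to 64588388 per library, at which 3 counts, taken here as the floor of detection, correspond to 0.0451 to 0.0708 CPM (counting error only). VIM (1605 to 2094 CPM) and CD44 (538 to 960 CPM) were abundant and PGR had at most 1 count and ESR1 at most 2.78 CPM (at most 0.590 CPM without the pair of libraries described next), while ERBB2 had 71.5 to 116 CPM. Epithelial EPCAM (4.38 to 13.0 CPM) and CDH1 (1.50 to 7.05 CPM, at most 2.75 CPM without that pair) were low. The leukocyte marker PTPRC (0.120 to 0.687 CPM), the endothelial marker CDH5 (at most 0.160 CPM) and the hepatocyte marker ALB (at most 0.260 CPM) were near the floor. Genes with counts in exactly 2 libraries and a highest count of at least 80 were looked for. A pair of libraries, sh-TRC replicate 2 and sh-MIR100HG-1 replicate 1, stood apart: they shared 29 such genes, among them MYCN, KIT, FLT3 and GATA1. These had 67 to 628 counts in both and 0 in the other 4 libraries. The other 14 of the 15 pairs of libraries had 0 such genes. CDKN2A, a gene known to be deleted in MDA-MB-231, had 71 and 89 counts in that pair and 0 to 2 in the rest. The source of these counts was not tested, and values without the pair are given for several results below.

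Per length of transcript (RPKM, CPM per kilobase of the deposited exon length), the control levels of the 10 genes spanned a wide range. HMGA1 was highest at 809 ± 230 RPKM (SD, n = 2), followed by IGF2BP2 at 24.6 ± 3.15, HMGA2 at 7.64 ± 1.53, IGF2BP3 at 3.44 ± 0.908, ARID3A at 1.55 ± 0.248 and ARID3B at 1.10 ± 0.0411 (SD, n = 2 each). The control libraries of neighbouring genes in this order did not overlap, and the narrowest gap was between ARID3A (1.37 to 1.72 RPKM) and ARID3B (1.07 to 1.13). MYCN, TRIM71, IGF2BP1 and LIN28B were at 0 or near the floor in at least 1 control library. The control cells thus held HMGA1, HMGA2, IGF2BP2 and IGF2BP3 transcripts, while the LIN28B arm of the loop was near the floor.

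**Figure D2:**
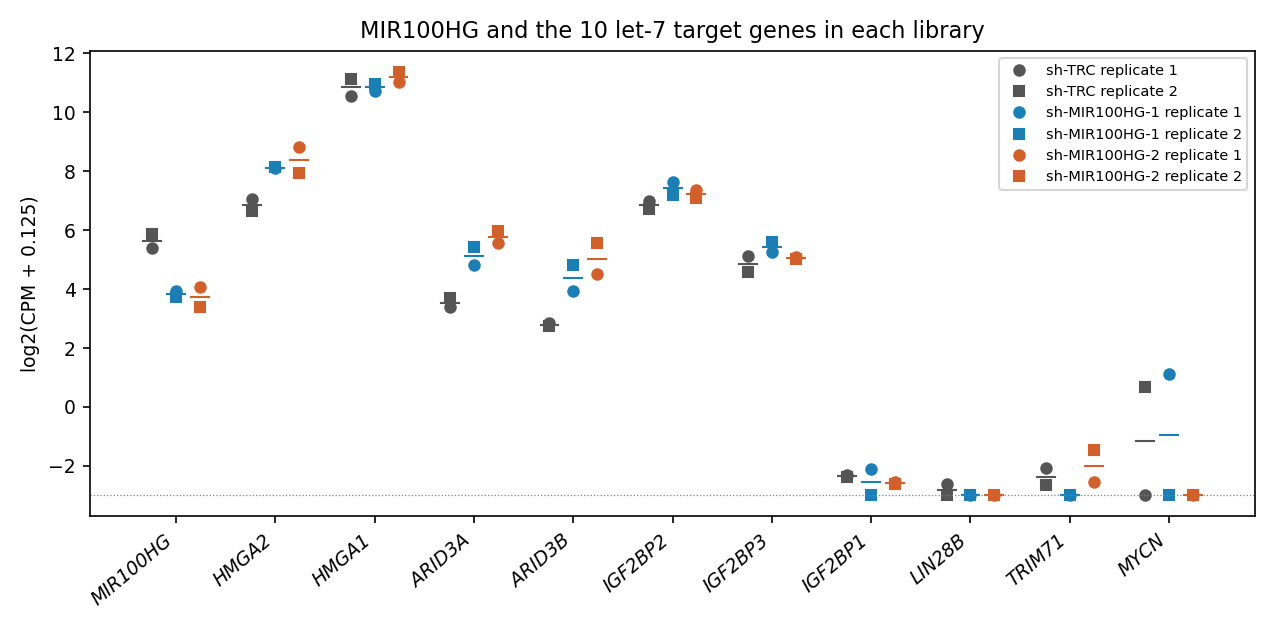
Level of MIR100HG and of the 10 let-7 targets in each of the 6 libraries, on a log2 scale of CPM plus 0.125, with circles for replicate 1, squares for replicate 2, short bars for group means and the dotted line for 0 counts. HMGA2, ARID3A, ARID3B and IGF2BP2 have all 4 knockdown libraries above both controls, opposite to MIR100HG, and MYCN has counts only in sh-TRC replicate 2 and sh-MIR100HG-1 replicate 1.

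Of the 6 tested genes, HMGA2, ARID3A and ARID3B were 2.65, 3.91 and 4.15 times as high after knockdown as in the control (ratio of mean CPM), IGF2BP2 and IGF2BP3 1.38 and 1.31 times, and HMGA1 1.12 times. With edgeR's quasi-likelihood test over all 15914 genes, 0 of the 6 passed an adjusted p of 0.05, as did 0 genes in all (0%), so none is called changed in that fit. At an unadjusted p under 0.05, HMGA2, ARID3A and ARID3B were higher, 3 of 6, where 3.15% of all genes tested were, and 0 were lower, where 4.39% were. The median log2FC of the 6 was 0.93, against -0.04 for all genes tested, and all 6 values were positive, against 7230 of 15914. The same 3 genes passed the adjusted threshold with DESeq2 (129 genes in all, adjusted p = 0.000857 for HMGA2, 1.6e-07 for ARID3A and 0.000137 for ARID3B). They also passed with edgeR's likelihood ratio test (110 genes in all). Its adjusted p was 0.00474 for HMGA2, 5.77e-06 for ARID3A and 0.0019 for ARID3B. The paper names a quasi-likelihood method but gives glmLRT, edgeR's function for the likelihood ratio test, so its test can be read either way. The same 3 genes passed with the quasi-likelihood test run without the filter on low counts (392 genes in all). Whether they are called thus rests on the test and the filter, and the cause of that difference was not tested.

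HMGA2 (ENSG00000149948.13_2, chr12:66217911-66360075, plus strand) encodes an architectural chromatin protein with AT-hooks and is the best known let-7 target in tumours. It had 134 and 101.1 CPM in the sh-TRC libraries. It had 274 and 281 CPM with sh-MIR100HG-1 and 451 and 244 CPM with sh-MIR100HG-2, so each knockdown library was higher than both controls. The log2FC was 1.40 (SE 0.28) for both hairpins together, at an unadjusted p of 9.29e-04 and adjusted to 0.4 in edgeR's test, rank 37 of all genes tested. The sh-MIR100HG-1 replicates lay close together (277 ± 4.99 CPM, SD, n = 2), while those of sh-MIR100HG-2 were spread (347 ± 146, SD, n = 2). Leaving out 1 library at a time gave log2FC values from 1.14 to 1.62, and leaving out the pair of libraries that stood apart gave 1.22.

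ARID3A (ENSG00000116017.6, chr19:925781-975939, plus strand) encodes a DNA-binding protein with an ARID domain, known as Bright in B cells. Its level was 10.3 and 12.9 CPM in the controls, 28.0 and 43.4 CPM with sh-MIR100HG-1 and 47.4 and 63.0 CPM with sh-MIR100HG-2. The 3 groups did not overlap, with the control lowest and sh-MIR100HG-2 highest. The log2FC of 1.93 (SE 0.28) came with an unadjusted p of 8.75e-05, adjusted to 0.394 in edgeR's test, rank 3 of all genes tested, directly after MIR100HG. Without the pair of libraries that stood apart, the log2FC was 2.25 for both hairpins together. For sh-MIR100HG-2 alone it was then 2.42. This subset was chosen after seeing the data and left sh-TRC replicate 1 as the only control, so the spread of the control was not measured in it.

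ARID3B (ENSG00000179361.17_2, chr15:74833518-74890472, plus strand), the paralog of ARID3A, had 7.0 and 6.64 CPM in the controls. With sh-MIR100HG-1 it had 15.1 and 28.4 CPM, and with sh-MIR100HG-2 22.7 and 46.9 CPM. All 4 knockdown libraries were above both controls, and the 2 hairpins overlapped. Its log2FC was the highest of the 6 genes, 2.01 (SE 0.39, unadjusted p = 7.08e-04, adjusted p = 0.394 with edgeR, rank 25). It stayed between 1.70 and 2.23 with any 1 library left out and was 2.17 without the pair that stood apart. The third paralog, ARID3C, had a log2FC of -0.31 (SE 0.69).

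HMGA1 (ENSG00000137309.19_1, chr6:34204650-34214008, plus strand), the second AT-hook protein of the family, was the most abundant of the 10 genes and did not follow HMGA2. Its values were 1505 and 2261 CPM in the controls, 1683 and 2019 CPM with sh-MIR100HG-1 and 2077 and 2654 CPM with sh-MIR100HG-2. The controls spanned both sh-MIR100HG-1 libraries and 1 of the sh-MIR100HG-2 libraries. The log2FC was 0.15 (SE 0.22, unadjusted p = 0.507 with edgeR), smaller than its error. Leaving out sh-TRC replicate 1 turned it to -0.11, so its direction rests on that control. HMGA1 has processed pseudogenes, and how the authors' counting treated reads that map to several places was not given in the sources used here.

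IGF2BP2 (ENSG00000073792.15_1, chr3:185361527-185542844, minus strand) binds and stabilises growth-related transcripts and is the member of its family that adult tissues keep expressing. It had 127 and 106 CPM in the controls, 197 and 148 CPM with sh-MIR100HG-1 and 164 and 136 CPM with sh-MIR100HG-2. All 4 knockdown libraries were above both controls, by a small margin at the lowest. The log2FC was 0.47 (SE 0.21, unadjusted p = 0.0558, adjusted p = 0.672 with edgeR). Without the pair of libraries that stood apart it was 0.23 (SE 0.34).

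IGF2BP3 (ENSG00000136231.13_1, chr7:23349828-23510086, minus strand), the oncofetal paralog, had 34.7 and 23.8 CPM in the controls. It had 38.2 and 48.9 CPM with sh-MIR100HG-1, both above the controls, and 34.0 and 32.4 CPM with sh-MIR100HG-2, both between them. The log2FC for both hairpins was 0.38 (SE 0.23, unadjusted p = 0.137 with edgeR), within a range of 0.13 to 0.68 with 1 library left out. Without the pair of libraries that stood apart it was 0.21.

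Counting genes by overlap alone, HMGA2, ARID3A, ARID3B and IGF2BP2, 4 of the 6 tested, had all 4 knockdown libraries above both controls, which 8.34% of all genes tested had. None of the 6 had all 4 below, which 9.14% of all genes had.

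The 4 remaining genes did not pass the filter and were not tested. LIN28B (ENSG00000187772.7_2, chr6:105384491-105531207, plus strand), the let-7 blocker, had 2 counts in sh-TRC replicate 1 and 0 in the other 5 libraries, so no level above 3 counts was detected in any group. Its paralog LIN28A had 4 counts in sh-TRC replicate 1, 4 in sh-MIR100HG-1 replicate 1 and 0 elsewhere. IGF2BP1 (ENSG00000159217.9_2, chr17:47074774-47133012, plus strand), the oncofetal RNA-binding paralog, had 4 and 4 counts in the controls, 7 and 0 with sh-MIR100HG-1 and 2 and 2 with sh-MIR100HG-2. These values overlap and lie near the floor.

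TRIM71 (ENSG00000206557.5_1, chr3:32859510-32939318, plus strand), an RNA-binding ubiquitin ligase of stem cells known as lin-41 in worms, had 6 and 2 counts in the controls, 0 and 0 with sh-MIR100HG-1 and 2 and 12 with sh-MIR100HG-2. The gene with the most let-7 matches of the 10 was thus not detectable above the spread of these counts in either direction. MYCN (ENSG00000134323.10_1, chr2:16080686-16087129, plus strand), the neuroblastoma oncogene, had 87 counts (1.48 CPM) in sh-TRC replicate 2 and 135 counts (2.03 CPM) in sh-MIR100HG-1 replicate 1, and 0 in the other 4 libraries. These are the libraries that share the 28 other genes found nowhere else, and without them MYCN had 0 counts in every group. Its relative MYC, a further let-7 target, had 174 to 427 CPM over all libraries and a log2FC of 0.61 (SE 0.33, unadjusted p = 0.0972 with edgeR).

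Each hairpin was then compared with the same control libraries, so these comparisons share their controls and are not independent of each other. With sh-MIR100HG-1, the log2FC was 1.24 (SE 0.31) for HMGA2, 1.62 (SE 0.30) for ARID3A, 1.67 (SE 0.42) for ARID3B, 0.57 (SE 0.24) for IGF2BP2, 0.57 (SE 0.26) for IGF2BP3 and -0.03 (SE 0.25) for HMGA1. Of these, 4 of 6 (HMGA2, ARID3A, ARID3B and IGF2BP2) were higher at an unadjusted p under 0.05 in edgeR's test, as were 3.02% of all genes, and 0 were lower, against 3.69%. Without the pair of libraries that stood apart, the log2FC of this hairpin was 1.06 for HMGA2, 2.07 for ARID3A and 2.02 for ARID3B. It was then 0.22 for IGF2BP2, 0.49 for IGF2BP3 and 0.42 for HMGA1. IGF2BP2 had 0.34 without sh-MIR100HG-1 replicate 1 alone. With sh-MIR100HG-2 and all libraries, the log2FC was 1.56 (SE 0.31) for HMGA2, 2.25 (SE 0.30) for ARID3A and 2.35 (SE 0.42) for ARID3B. It was 0.36 (SE 0.24) for IGF2BP2, 0.18 (SE 0.26) for IGF2BP3 and 0.33 (SE 0.25) for HMGA1. Here 3 of 6 (HMGA2, ARID3A and ARID3B) were higher at that p, as were 3.69% of all genes, and 0 were lower, against 5.23%. ARID3A had rank 2 of all genes tested. The ARID3B value with sh-MIR100HG-2 ranged from 1.73 (without sh-MIR100HG-2 replicate 2) to 2.78 with 1 library left out. The lowest adjusted p of the 6 genes was 0.732 for the first hairpin and 0.339 for the second (edgeR), so 0 genes were called for either hairpin, in the 6 or in all (0%). DESeq2 called 65 genes with sh-MIR100HG-1, 2 of them among the 6, and 169 genes with sh-MIR100HG-2, among them HMGA2, ARID3A and ARID3B.

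**Figure D3:**
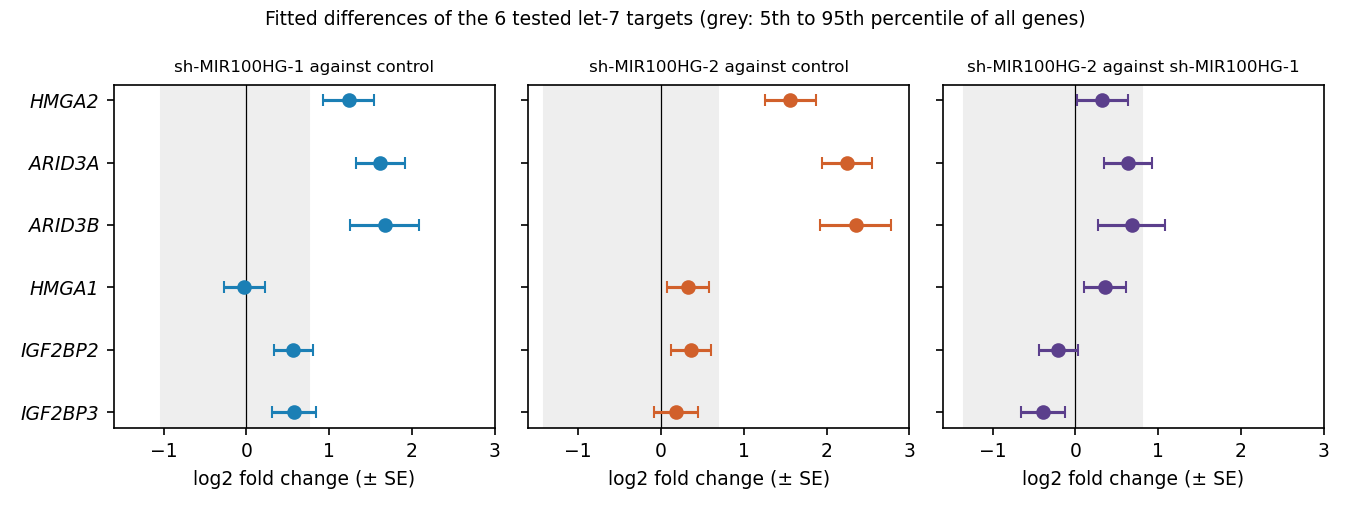
Log2 fold changes of the 6 tested genes with their standard errors (bars) for each hairpin against control and for the difference of the second hairpin from the first; the grey band runs from the 5th to the 95th percentile of all 15914 genes in that comparison. HMGA2, ARID3A and ARID3B lie above the band for both hairpins, and no gene lies outside it between the hairpins.

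The direct test between the hairpins found no difference that passed in these genes. ARID3A was 0.63 (SE 0.29) higher on the log2 scale with sh-MIR100HG-2 than with sh-MIR100HG-1 (unadjusted p = 0.0592 in edgeR's quasi-likelihood test). ARID3B was 0.68 (SE 0.40), HMGA1 0.35 (SE 0.25) and HMGA2 0.33 (SE 0.30) higher. The ARID3B difference rests on single libraries: it was 0.067 without sh-MIR100HG-2 replicate 2 and 1.23 without sh-MIR100HG-1 replicate 2. IGF2BP3 was -0.39 (SE 0.26) and IGF2BP2 -0.20 (SE 0.24), lower with sh-MIR100HG-2. At an unadjusted p under 0.05, 0 of 6 were higher or lower, against 3.36% of all genes higher and 6.18% lower.

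Each hairpin has a guide strand with a seed of its own, which could pair with other 3′UTRs, so the same count was made for those seeds. The guides, copied from the oligonucleotides listed by the study, are shown with bases 2 to 8 in capitals.
sh-MIR100HG-1: aTTTAAGTacaaacagaggaa
sh-MIR100HG-2: tTTATTCTgtaggtcactctc

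The match to the first guide, ACTTAAA, was found in the longest 3′UTR of 3 of the 10 genes (IGF2BP1, IGF2BP3 and ARID3A), and in 18.3% of all genes. The match to the second, AGAATAA, was found in 4 of 10 (LIN28B, IGF2BP2, IGF2BP3 and TRIM71), and in 19.8% of all genes. ARID3B had neither in any annotated 3′UTR, and HMGA2 had 1 match to the second guide outside its longest 3′UTR.

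Set beside their canonical let-7 matches, the fitted differences of the 6 genes did not follow the number of matches in order. HMGA1 and IGF2BP3, with 1 match each, had log2FC values of 0.15 and 0.38, IGF2BP2 and ARID3A, with 3 each, 0.47 and 1.93, ARID3B, with 5, 2.01, and HMGA2, with 7, 1.40. The 2 genes with matches to all 3 microRNAs of the locus, ARID3A and ARID3B, had the 2 highest values. With 6 genes this is a description and was not tested.

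The other genes of the let-7 pathway were described from lists of known targets, processing factors, host genes and paralogs. Of 20 other known let-7 targets, all tested, 6 were higher at an unadjusted p under 0.05 in edgeR's test, 0 were lower and 18 had a positive log2FC, with a median of 0.36. Over all genes tested, 3.15% were higher, 4.39% were lower, 7230 of 15914 had a positive log2FC and the median was -0.04. CDC25A, the phosphatase that activates cyclin-dependent kinases, went from 28.9 and 36.3 CPM in the controls to 66.7, 108, 82.7 and 132 CPM in the knockdown libraries (log2FC 1.57, SE 0.30, adjusted p = 0.394). CDK6, the G1 kinase, went from 91.4 and 101.4 CPM to 153, 268, 186 and 241 CPM (log2FC 1.14, SE 0.27, adjusted p = 0.454). CDC34, a ubiquitin-conjugating enzyme, PLAGL2, a zinc finger transcription factor, and COIL, the Cajal body protein coilin, had smaller values of 0.68 (SE 0.24), 0.72 (SE 0.28) and 0.55 (SE 0.21). In none of these genes did a knockdown library fall below both controls.

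DICER1, the nuclease that cuts let-7 precursors and is itself a let-7 target, belongs to this list and to the list of processing factors. It had 78.0 and 54.8 CPM in the controls, 203 and 291 CPM with sh-MIR100HG-1 and 144 and 147 CPM with sh-MIR100HG-2, all above the controls. Its log2FC was 1.51 (SE 0.24, adjusted p = 0.394 with edgeR, rank 8), 1.89 with the first hairpin and 1.13 with the second. Unlike HMGA2, ARID3A and ARID3B, it was lower with sh-MIR100HG-2 than with sh-MIR100HG-1, by -0.76 (SE 0.26, unadjusted p = 0.0197, adjusted p = 0.505 with edgeR).

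Of 19 genes that process, load or turn over let-7, 18 were tested (not LIN28A), 3 were higher at an unadjusted p under 0.05, 0 were lower, and the median log2FC was 0.23, against 3.15%, 4.39% and -0.04 over all genes tested. Beside DICER1 these were the Argonaute partners TNRC6B (0.83, SE 0.21, adjusted p = 0.478 with edgeR) and TNRC6C (0.68, SE 0.19, adjusted p = 0.514 with edgeR). Both were above the controls in all 4 knockdown libraries.

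Of 5 host genes of let-7 hairpins, 4 were tested and only MIR100HG, the knocked-down gene itself, was lower at an unadjusted p under 0.05, where 4.39% of all genes tested were. MIRLET7BHG, the host of let-7b, had 1.95 and 2.26 CPM in the controls and 1.62 to 2.63 CPM after knockdown (log2FC -0.00, SE 0.37), WDR82, the host of let-7g, had -0.40 (SE 0.36) and HUWE1, the host of miR-98, 0.18 (SE 0.17). Of the 4 paralogs of the 10 genes, 3 were tested (MYC, MYCL and ARID3C) and 0 passed an unadjusted p of 0.05.

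**Figure D4:**
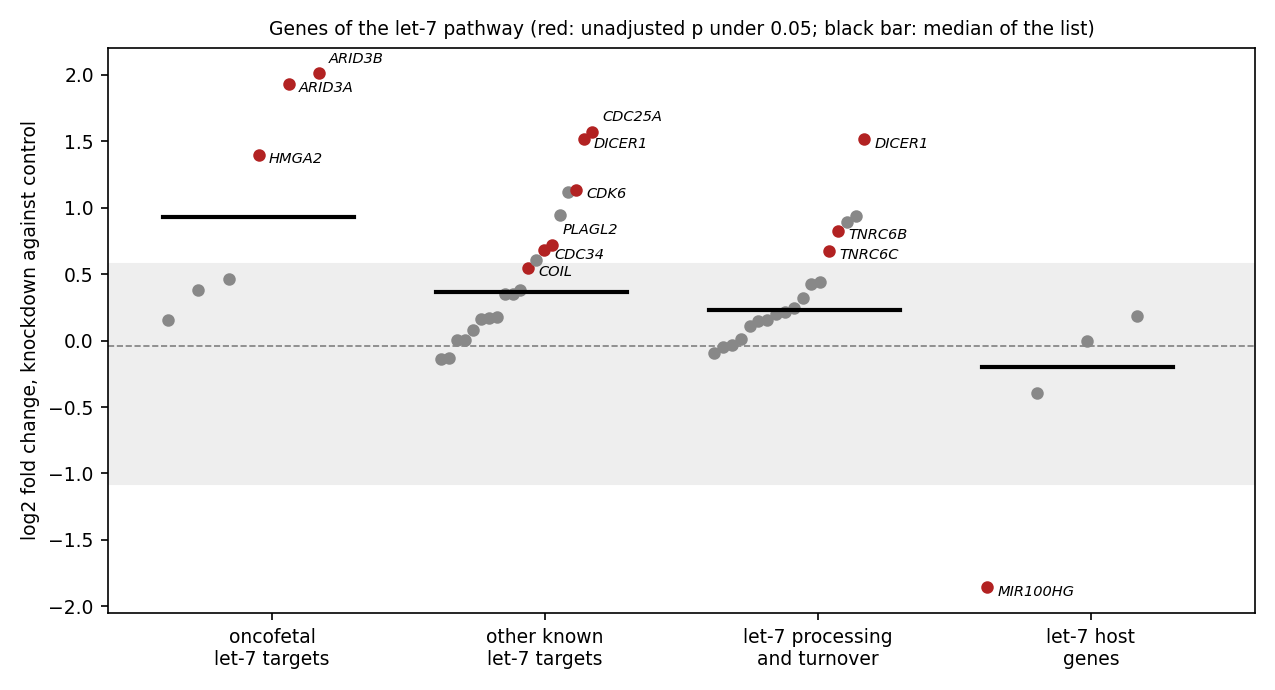
Log2 fold change of knockdown against control for the tested genes of 4 lists, with red points for an unadjusted p under 0.05 in edgeR's test, black bars for list medians, the dashed line for the median of all genes and the grey band for their 5th to 95th percentile. HMGA2, ARID3A and ARID3B lie above the band with CDC25A, DICER1, CDK6 and further genes, while MIR100HG is the only labelled gene below it.

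Across all tested genes with an annotated 3′UTR, the shift with let-7 matches was small beside the values of HMGA2, ARID3A and ARID3B. The median log2FC after knockdown was -0.03 for 12617 genes without CTACCTC in the longest 3′UTR, 0.02 for 1464 genes with 1, 0.05 for 180 genes with 2 and 0.08 for 30 genes with 3 or more. By this count HMGA2 fell among the genes without a match and ARID3B among those with 1. Their canonical transcripts held 7 and 5 let-7 matches of either kind. For both hairpins together, 3% of genes without a match were higher at an unadjusted p under 0.05 in edgeR's test. With 1, 2 and 3 or more matches these shares were 7.1%, 5.56% and 6.67%, so they did not keep rising. In the same order, sh-MIR100HG-1 gave 2.92%, 5.74%, 6.11% and 10%, rising at each step, and sh-MIR100HG-2 3.61%, 7.24%, 6.67% and 13.3%. The median log2FC by hairpin was -0.01, 0.05, 0.12 and 0.14 with sh-MIR100HG-1. With sh-MIR100HG-2 it was -0.04, 0.03, 0.06 and -0.03, so it did not keep rising. The shares lower for both hairpins together were 4.58%, 4.03%, 2.22% and 0%. The last class holds only 30 genes, and no trend was tested. For the miR-125b match CTCAGGG the shares higher for both hairpins together were 3.11%, 4.72%, 7.05% and 6.06% in the same order. The shares lower rose as well, from 4.42% to 4.72%, 5.04% and 5.3%. The median log2FC with 3 or more miR-125b matches was -0.10. The median length of the 3′UTR moved with the number of let-7 matches, from 1283 bases without a match to 7012.5 bases with 3 or more. Its part in these medians and shares was not tested.

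The genes whose log2 CPM followed that of HMGA2 most closely over the 6 libraries, among 9508 genes with at least 10 CPM on average, were GLIS3 (Pearson's r of 0.995), PLEKHA8 (0.981) and NLRP3 (0.977). Their own log2FC values after knockdown were smaller, 0.26 (SE 0.21), 0.45 (SE 0.20) and 0.76 (SE 0.28). The 6 libraries form 3 groups, so these r values are descriptions without a test.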

How the data were processed

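Reads were aligned by the authors to GRCh37 with STAR (version 2.5.2a in the submitters' processing notes) and the GENCODE v25lift37 annotation, assigned them to exons with FeatureCounts and deposited raw counts per gene without normalization. Strand and multi-mapping settings were not given in the sources used here, so antisense genes cannot be told apart from their partners. Counts of 1 to 12 were even in 69.4% of cases, against 50.9% of counts over 500, so low counts may hold fewer fragments than they state.

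The 10 genes and the gene lists were chosen with earlier results of these data known. Symbols were matched by Ensembl identifier. Genes with at least 5 counts in at least 3 of 6 libraries were kept (15914). The filter in the methods can also be read as at least 4 libraries, which was run as an alternative. The 3 groups were fitted in 1 model with edgeR 4.0.16 (TMM, quasi-likelihood, 3 residual degrees of freedom) in R 4.3.3, with Benjamini-Hochberg adjustment over all genes tested. The common biological coefficient of variation was 28.3%. Named genes were the 10 targets, MIR100HG, list genes at an unadjusted p under 0.05 (at most 6 per list) and the 3 genes most like HMGA2. Host genes and paralogs outside this rule were named after their values were seen. The fit was tested on simulated data. Alternatives used RLE scaling, no filter, the likelihood ratio test, DESeq2 1.42.0, a replicate block and each library left out. Sites were counted in Python 3.11.15.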

Additional observations from a re-analysis of the deposited data

Results flagged for a closer look

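The following values lie above both control libraries in genes that entered no test because of their low counts. MYCN reached 2.03 CPM in sh-MIR100HG-1 replicate 1, against 0 and 1.48 CPM in the controls, and the latter comes from sh-TRC replicate 2, the library that shares 29 genes with it. TRIM71 reached 0.24 CPM (12 counts) in sh-MIR100HG-2 replicate 2, against 6 and 2 counts in the controls. IGF2BP1 reached 0.105 CPM (7 counts) in sh-MIR100HG-1 replicate 1, against 4 counts in each control, while the other replicate of that hairpin had 0. For none of these genes were both libraries of a hairpin above both controls.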

How the results depend on the processing

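Each log2FC of the 6 tested genes in the 4 comparisons was recomputed under up to 14 other settings, 318 values in all. Of these, 284 kept their direction and their side of an adjusted p of 0.05, 25 kept their direction and passed that threshold, 0 lost a call and 9 changed direction. HMGA2, ARID3A and ARID3B against control kept their direction under every setting run. The direction changed for HMGA1 after knockdown without sh-TRC replicate 1 (-0.11, in a range up to 0.54 over subsets of the libraries) and with sh-MIR100HG-1 without sh-TRC replicate 2 (0.30), without sh-MIR100HG-1 replicate 1 (0.10) and without both (0.42, in a range from -0.29). It changed for IGF2BP3 with sh-MIR100HG-2 without sh-TRC replicate 2, with or without sh-MIR100HG-1 replicate 1 (-0.065, in a range up to 0.48). Between the hairpins it changed for IGF2BP2 without sh-MIR100HG-1 replicate 1, with or without sh-TRC replicate 2 (0.020, in a range from -0.39), and for HMGA2 without sh-MIR100HG-2 replicate 1 (-0.18, in a range up to 0.70).

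Counts of genes called at an adjusted p of 0.05, which were 0 in edgeR's quasi-likelihood test, depended on the test and the filter, and the cause was not tested. After knockdown, 392 genes were called without the filter on low counts (118 higher), 110 with edgeR's likelihood ratio test (46 higher) and 129 with DESeq2 (77 higher), each with 3 of the let-7 targets. With sh-MIR100HG-1 these counts were 227, 32 and 65, with 3, 1 and 2 of the let-7 targets. With sh-MIR100HG-2 they were 517, 128 and 169, each with 3. Between the hairpins they were 679, 100 and 102, with 0. At an unadjusted p under 0.05, the quasi-likelihood test had 1200, 1069, 1419 and 1518 genes in these comparisons.

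Leaving out 1 library at a time gave 0 to 1 genes after knockdown (1 without sh-TRC replicate 1), 0 to 3 with sh-MIR100HG-1 (3 without sh-TRC replicate 1), 0 to 5 with sh-MIR100HG-2 (5 without sh-TRC replicate 2) and 0 to 7 between the hairpins (6 and 7 without sh-TRC replicates 1 and 2), with 0 let-7 targets throughout. A group left with 1 library is assumed to vary like the others. Without both libraries that stood apart, chosen after seeing the data, 4, 0, 27 and 16 genes were called in the 4 comparisons, with 1 let-7 target, ARID3A with sh-MIR100HG-2.

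The replicate numbers did not pair the samples: deviations of same-numbered libraries from their group means correlated at -0.23 between sh-TRC and sh-MIR100HG-1, 0.02 between sh-TRC and sh-MIR100HG-2 and 0.47 between the hairpins. With the replicate block, 0 genes were called in each comparison, and the log2FC after knockdown was 1.40 for HMGA2, 1.92 for ARID3A and 1.90 for ARID3B. With the numbers crossed for sh-MIR100HG-1 against control, chosen after seeing the data, 0 genes were called.

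With let-7 matches taken as 8-mers only, 6 of the 10 genes had a match, and 9 had CTACCTC in any annotated 3′UTR block or in the canonical transcript. With 2 libraries a group, LIN28B, IGF2BP1, TRIM71 and MYCN were too low for any comparison.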
